A study of Mus musculus with 12 samples.

Results

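NRF2, the transcription factor encoded by Nfe2l2, was followed in mouse liver together with its repressor KEAP1 and 8 genes known as its redox targets, Nqo1, Srxn1, Txnrd1, Hmox1, Ephx1, Ugdh, Cbr3 and Htatip2. These 10 genes were taken by symbol from the 36047 genes with a matched transcript, and all 10 passed the filter on low counts that left 14670 genes for testing. RNA came from the livers of 12 adult male C57Bl/6J mice, 3 per group, which ate their diets for 7 days. RF.Ctrl mice received a control diet with a regular fat content, RF.SAAR mice a sulfur amino acid restricted diet with the same fat content, HF.Ctrl mice a high-fat control diet and HF.SAAR mice a high-fat restricted diet. All diets lacked cysteine, so the control mice also lived on methionine as their only sulfur amino acid, and the restricted diets held less methionine, replaced by glutamic acid. According to the paper the mice of all groups also received an injection of deuterated water and drank deuterium-labeled water. The mice were housed singly and were without food for a few hours before the liver was taken.

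In resting cells KEAP1 binds NRF2 and hands it to a CUL3 ubiquitin ligase, so the factor is made and degraded continuously. Oxidants and electrophiles react with cysteines of KEAP1, and NRF2 then escapes, pairs with a small MAF protein and binds antioxidant response elements (ARE) near genes of thiol reduction, NADPH supply, quinone and epoxide handling, conjugation, and heme and iron metabolism. In liver the pathway is best known for its part in the clearance of drugs and reactive metabolites. Because NRF2 is controlled mainly as a protein, the mRNA of Nfe2l2 does not report its activity.

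RefSeq promoter windows (GRCm38.p6, from 250 bases before to 50 bases after a transcript start) were read for 9 of the 10 genes, 12 windows in all, to show where letters of an ARE lie near the genes whose mRNA is described here. The ARE core was searched as TGACNNNGC on both strands. It occurred in 6 of the 12 windows, belonging to 5 genes (Nfe2l2, Ugdh, Txnrd1, Htatip2 and Srxn1), while 12.4% of all 32851 windows held it. The matches that lay outside annotated exons and upstream of their start are shown with 10 bases on each side, 5′ to 3′ on the strand of the gene, with the ARE core in capitals.
Nfe2l2, chr2:75704885-75704913, minus strand: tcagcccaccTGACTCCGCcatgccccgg
Ugdh, chr5:65435956-65435984, minus strand: gcggagcccgTGACTTAGCtggagctgat
Txnrd1, chr10:82859104-82859132, plus strand: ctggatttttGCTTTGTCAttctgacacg
Htatip2, chr7:49759453-49759481, plus strand: gtctgagctgTGACTCAGCacttccctag

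Counted from the transcript start, the Nfe2l2 match lay at -240 to -232, that of Ugdh at -132 to -124, that of Txnrd1 at -92 to -84 (on the opposite strand, hence the reversed letters) and that of Htatip2 at -49 to -41. The Htatip2 letters belong to its second RefSeq start, which lies in the first intron of the main transcripts, and they contain a match to the AP-1 motif TGANTCA, which 7.81% of windows held. Srxn1 carried 2 upstream AP-1 matches, from -102 and from -45, beside an ARE core within its first exon. The letters from -45 read tgagtcagc, which differ from the searched ARE core by a G in place of the C after TGA. Looser forms of the ARE core were not searched. The core of the xenobiotic response element, GCGTG, was found for 5 of the 9 genes, where 35.2% of all genes with a window held it. The amino acid response motif TGATGNAA was found for none of the 9, where 4.51% of all genes with a window held it. A match is a description of letters, and binding was not measured. Hmox1 had no window, and sequence beyond the windows was not searched. A window without a match therefore does not show that its gene lacks an ARE.

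**Figure D1:**
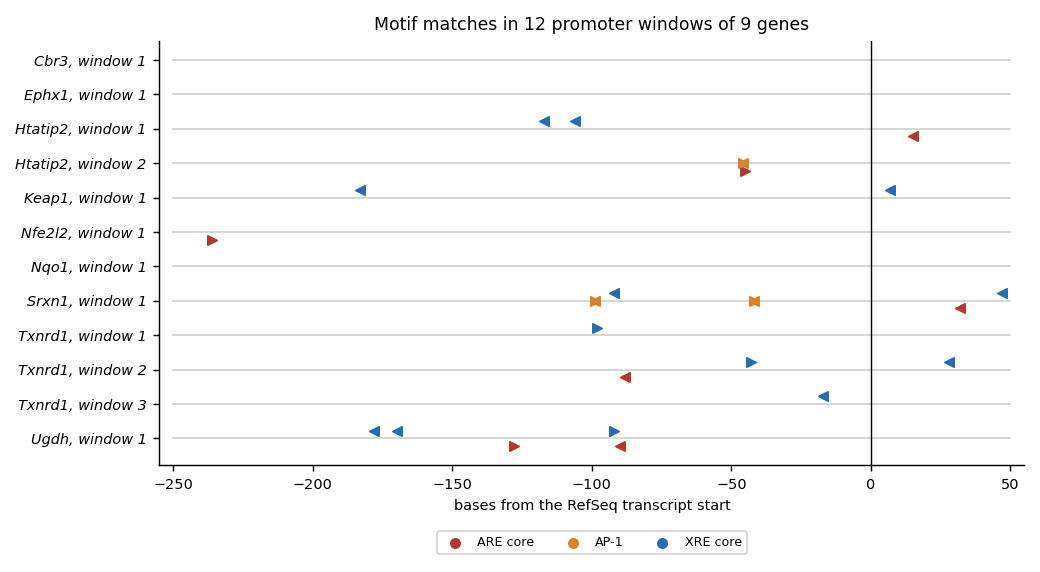
Positions of motif matches in the 12 promoter windows of 9 genes. The x axis gives bases from the RefSeq transcript start, each grey line is a window, and arrowheads point along the strand of a match to the ARE core (red), AP-1 (orange) or the core of the xenobiotic response element (blue). The windows of Nqo1, Ephx1 and Cbr3 are empty, and Ugdh holds ARE cores from -132 and from -94.

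The upstream sequence of Ugdh is shown up to its first annotated exon, with the ARE core in capitals, next to those of Ephx1 and Nqo1, whose mRNA also stood higher on SAAR and whose windows held none of the motifs searched.
Ugdh, chr5:65435950-65436092, minus strand: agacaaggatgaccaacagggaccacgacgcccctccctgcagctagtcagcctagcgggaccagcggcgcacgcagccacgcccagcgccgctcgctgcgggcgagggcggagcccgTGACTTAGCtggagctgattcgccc
Ephx1, chr1:181017570-181017819, minus strand: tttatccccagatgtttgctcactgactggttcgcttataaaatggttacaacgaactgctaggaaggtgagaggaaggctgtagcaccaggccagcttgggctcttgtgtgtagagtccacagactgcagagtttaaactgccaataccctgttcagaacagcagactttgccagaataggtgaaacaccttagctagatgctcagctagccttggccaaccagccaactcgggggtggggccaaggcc
Nqo1, chr8:107403207-107403455, minus strand: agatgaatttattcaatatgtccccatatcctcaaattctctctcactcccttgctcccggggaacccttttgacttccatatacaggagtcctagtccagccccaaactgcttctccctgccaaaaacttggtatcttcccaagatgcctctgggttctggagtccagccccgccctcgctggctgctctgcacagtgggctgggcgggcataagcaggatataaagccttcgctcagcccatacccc

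Total estimated counts ranged from 16203094 to 21230092 per mouse. Levels are given as normalized CPM, the estimated counts scaled to each library's effective total, and differences as log2 fold changes ± standard error from a fit to all 12 mice, with p-values of edgeR's quasi-likelihood test adjusted over the 14670 genes. A gene was called at an adjusted p under 0.05. The tissue carried its markers, as 8 hepatocyte genes summed to between 78239 and 102529 CPM in every mouse. Pancreatic acinar RNA set 5 libraries apart, since 21 acinar markers summed to 13021 CPM in HF.SAAR replicate 3, 4217 in HF.Ctrl replicate 2, 2826 in HF.SAAR replicate 2, 1172 in HF.Ctrl replicate 1 and 1034 in RF.Ctrl replicate 1, against 35.6 to 71.6 in the other 7 mice. Replicate numbers follow the order of deposition and pair no mice. Of all marker genes only Amy2b, an acinar gene, read 0 in any mouse (4 mice). Fewer cells of a type and less RNA per cell cannot be told apart in whole liver. Without the 3 libraries highest in these markers (the 3 acinar libraries below) the high-fat comparison rests on 1 HF.SAAR mouse, assumed to vary like the others, against 2 HF.Ctrl mice, of which HF.Ctrl replicate 1 is still raised. Without all 5, a setting chosen after seeing the data, it rests on 1 mouse against 1.

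Compared per length, as mean TPM, the 10 genes spanned a wide range, and part of their order differed between the 6 control mice and the 6 SAAR mice. TPM is not scaled between mice, so these values rank genes within a diet and do not measure the effect of the diet. Keap1, for example, was higher in TPM on SAAR, but its scaled log2 fold change over both fat levels was 0.19 ± 0.06 and not called. Ephx1 stood highest, at 176 ± 17.3 TPM in control and 349.5 ± 23.6 TPM in SAAR mice (SD, n = 6), followed by Ugdh at 53.2 ± 7.03 and 119.6 ± 28.6 TPM, each above the next gene in every mouse. In control mice Txnrd1 came next (33.0 ± 6.02 TPM), above Nfe2l2 (21.8 ± 5.62 TPM) and Htatip2 (20.6 ± 2.33 TPM) in all 6, and the latter pair was not separated, Nfe2l2 being the higher in 3 of 6. In SAAR mice Htatip2 (60.1 ± 3.71 TPM) lay above Txnrd1 (53.6 ± 9.81 TPM) in 5 of 6, and both lay above Nfe2l2 (27.7 ± 3.16 TPM) in all 6. Keap1 and Hmox1 were close to each other, at 11.9 ± 1.71 and 10.8 ± 2.49 TPM in control mice and 17.3 ± 1.68 and 18.1 ± 3.34 TPM in SAAR mice. Srxn1, Nqo1 and Cbr3 were the least abundant by mean on both diets, in that order, with Nqo1 at 2.11 ± 0.603 and 4.63 ± 0.920 TPM.

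The question put to the data was how the genes of this pathway stood after SAAR on each fat level. Ephx1, Ugdh and Htatip2 were higher in SAAR than in control mice on both fat levels, Nqo1 was called on high fat and not on regular fat, and the mRNAs of NRF2 and KEAP1 themselves were not called on either. In RF.SAAR vs. RF.Ctrl 3 of the 10 genes were called, all higher (Htatip2, Ephx1 and Ugdh), where 1.49% of all tested genes were called (0.6% higher, 0.886% lower). HF.SAAR vs. HF.Ctrl had 4 of the 10 called, again all higher (the same 3 and Nqo1), where 1.97% of genes were called (1.01% higher, 0.961% lower). Without the 3 acinar libraries Htatip2 alone of these 4 was still called (log2 1.44, adjusted p = 0.0166). Without all 5 raised libraries none of the 4 was called on high fat (Htatip2 1.59, adjusted p = 0.0705; Nqo1 1.35, adjusted p = 0.309), and on regular fat Htatip2 (1.17, adjusted p = 0.0223) and Ephx1 (0.81, adjusted p = 0.0354) were called but Ugdh (0.98, adjusted p = 0.0597) was not. The 10 genes had been chosen with results of these comparisons known, so their counts and p-values describe the genes and support nothing beyond them. An unadjusted p under 0.05 was reached by 5 of the 10 on regular fat (13.6% of all genes) and by 8 on high fat (12.4%). Every SAAR mouse lay above every control mouse for 5 of the 10 on regular fat (8.49% of all genes), for 6 on high fat (8.9%) and for 4 on both (2.8%). Over both fat levels, a comparison of the same mice, 6 of the 10 were called, all higher, where 3.22% of genes were called higher and 3.7% lower. Their median log2 fold change was 0.40 on regular fat and 0.53 on high fat, where the median of all tested genes was close to 0 in both (-0.001).

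**Figure D2:**
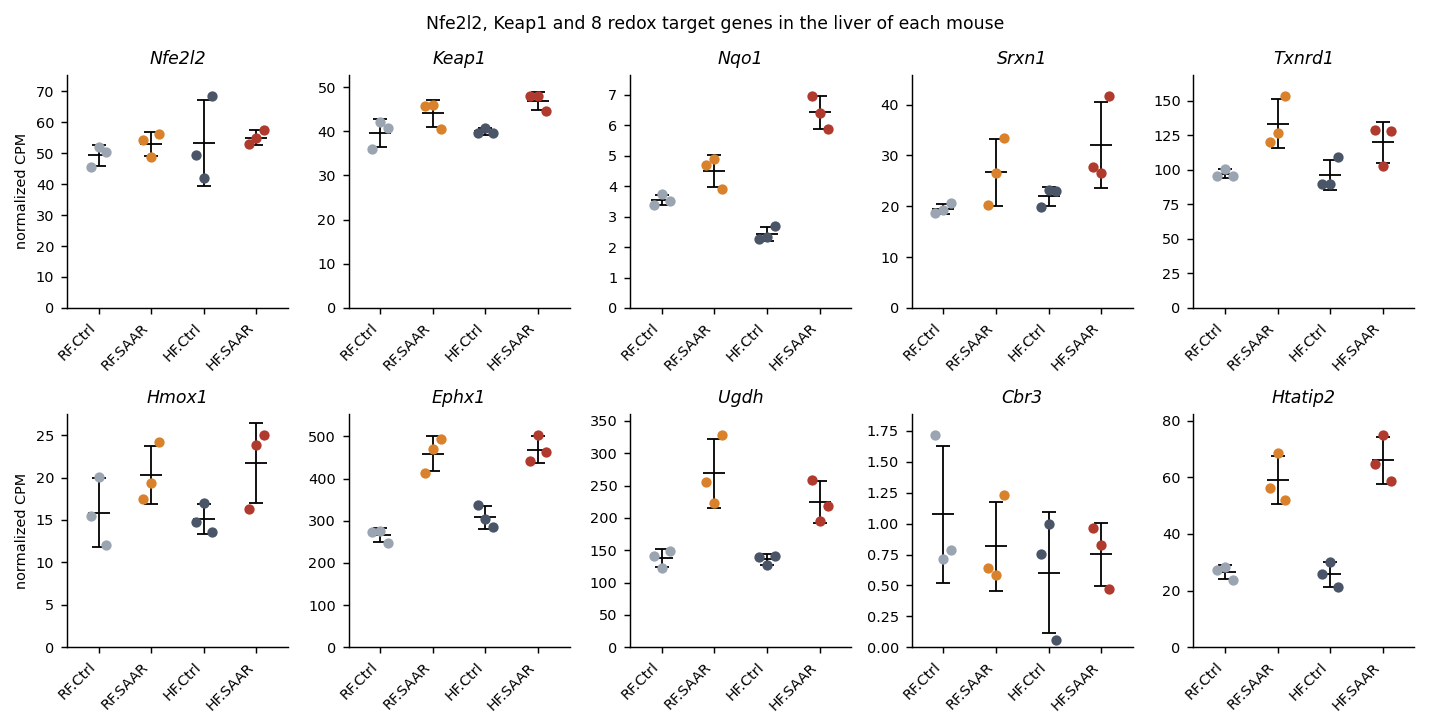
Normalized CPM of the 10 genes in each of the 12 mice. Each point is a mouse, the bars are the mean ± SD of 3 mice, each panel has its own linear y axis starting at 0, and the x axis gives the group. For Ephx1, Ugdh, Htatip2 and Nqo1 every SAAR mouse lies above every control mouse, while the groups of Nfe2l2 overlap.

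Nfe2l2 (chr2:75675513-75704641, minus strand) encodes NRF2. Its level was 45.4, 51.9 and 50.4 CPM in RF.Ctrl and 54.3, 48.7 and 56.0 CPM in RF.SAAR. In HF.Ctrl it was 49.4, 41.8 and 68.5 CPM and in HF.SAAR 52.9, 54.7 and 57.5 CPM. The groups overlapped on both fat levels, and the widest spread was that of HF.Ctrl (coefficient of variation 25.9%), where replicate 3 was the highest of all 12 mice and replicate 2 the lowest. The log2 fold change for SAAR was 0.11 ± 0.15 on regular fat (adjusted p = 0.853) and 0.05 ± 0.15 on high fat (adjusted p = 0.947). Its direction on high fat turned to -0.10 without HF.Ctrl replicate 2, to 0.00 (-0.004) without HF.Ctrl replicate 1 and to -0.18 without the 3 acinar libraries or -0.39 without all 5.

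Keap1 (chr9:21229730-21239361, minus strand) encodes the cysteine-rich adaptor that holds NRF2 back. It stood at 36.1, 42.2 and 40.7 CPM in RF.Ctrl and at 45.7, 45.9 and 40.6 CPM in RF.SAAR, with overlap. In HF.Ctrl it stood at 39.5, 40.8 and 39.6 CPM and in HF.SAAR at 47.9, 48.1 and 44.6 CPM, where every SAAR mouse was above every control mouse. The log2 fold changes were small, 0.15 ± 0.09 on regular fat (adjusted p = 0.533) and 0.23 ± 0.09 on high fat (adjusted p = 0.292). Scaled by library size alone, which moved the median of all tested genes to 0.17 on high fat, the high-fat value became 0.39 (adjusted p = 0.0405).

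The partners of this pair were read from a list of 12 regulators, which holds the CUL3 ligase, the small MAF proteins, the competitor BACH1, the sister factor NFE2L1 and the KEAP1-binding SQSTM1. None of the 12 was called in RF.SAAR vs. RF.Ctrl or in HF.SAAR vs. HF.Ctrl, and their median log2 fold change was -0.07 and -0.01. The smallest p belonged to Bach1, a repressor that occupies ARE sites, at 42.2 ± 4.47 CPM in RF.Ctrl and 30.2 ± 2.31 CPM in RF.SAAR (SD, n = 3). Its log2 fold change was -0.48 ± 0.14 on regular fat (adjusted p = 0.115) and -0.19 ± 0.14 on high fat (adjusted p = 0.663). With the mice of both fat levels together, 2 of the 12 were called, Nfe2l1 (0.30 ± 0.08, adjusted p = 0.0432) and Sqstm1 (0.31 ± 0.07, adjusted p = 0.0233), both higher on SAAR, where 6.92% of all genes were called.

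Nqo1 (chr8:107388225-107403206, minus strand), the quinone reductase often used as a readout of NRF2, had different values on the 2 fat levels, although none of its comparisons between fat levels was called. It measured 3.38, 3.73 and 3.52 CPM in RF.Ctrl and 4.69, 4.88 and 3.90 CPM in RF.SAAR. In HF.Ctrl it measured 2.25, 2.34 and 2.68 CPM, and in HF.SAAR 6.97, 6.41 and 5.89 CPM. None of the 4 groups overlapped another, with HF.Ctrl the lowest, then RF.Ctrl, RF.SAAR and HF.SAAR. The fold change for SAAR was 1.27 on regular fat (log2 0.34 ± 0.17, adjusted p = 0.432) and 2.64 on high fat (log2 1.40 ± 0.18, adjusted p = 0.000936).

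The difference between these responses was 1.06 ± 0.25 on the log2 scale, with an unadjusted p of 0.000793 and an adjusted p of 0.831 in edgeR's quasi-likelihood test, so it was not called. Of all tested genes 1 was called in this interaction (0.00682%), and 3.15% had an unadjusted p under 0.05. Between the control groups Nqo1 was at log2 -0.55 ± 0.18 for HF.Ctrl vs. RF.Ctrl (unadjusted p = 0.00926, adjusted p = 1), and between the restricted groups at 0.52 ± 0.17 for HF.SAAR vs. RF.SAAR (unadjusted p = 0.00891, adjusted p = 0.671). Every HF.Ctrl mouse lay below every RF.Ctrl mouse, as for 4.42% of all genes, and every HF.SAAR mouse above every RF.SAAR mouse, as for 5.47%. Without the 3 acinar libraries the high-fat response was 1.48 (adjusted p = 0.0982), and it kept to 1.34 to 1.48 whichever single mouse was left out. These differences rest on few reads, between 33 and 130 estimated counts per mouse.

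Among the 9446 genes with a mean of at least 5 CPM that were not among the 10, those whose pattern over the 12 mice lay nearest to Nqo1 were Snhg11, Gstm1, Mat1a, Pir and Gstp3. Nearness was the root mean square difference of log2 CPM, each gene centred on its own mean, and it was 0.155, 0.156, 0.193, 0.226 and 0.231 for them, where Nqo1 itself spread by 0.508 around its mean. Gstm1, a mu-class glutathione transferase, had log2 fold changes of 0.60 ± 0.09 on regular fat and 1.31 ± 0.10 on high fat. Mat1a, the liver's methionine adenosyltransferase, which makes S-adenosylmethionine, had 0.42 ± 0.12 and 0.88 ± 0.12. Nfe2l2 was nearest to Iffo2, Smad5, Zfp644, Mef2a and Zfp318 (0.073 to 0.083, with a spread of 0.172 for Nfe2l2), none of which was called in either SAAR comparison. Both sets of neighbours were picked by likeness over the same 12 mice, so their fold changes and calls follow from that choice.

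Srxn1 and Txnrd1 serve thiol reduction. Srxn1 (chr2:152105516-152111376, plus strand) encodes sulfiredoxin, which repairs over-oxidized peroxiredoxins. It read 18.6, 19.3 and 20.6 CPM in RF.Ctrl and 20.3, 26.5 and 33.4 CPM in RF.SAAR. On high fat it read 19.9, 23.1 and 23.0 CPM in HF.Ctrl and 27.7, 26.6 and 41.7 CPM in HF.SAAR. The control mice were close together and the SAAR mice spread widely, with overlap on regular fat and none on high fat. The log2 fold change was 0.45 ± 0.19 on regular fat (adjusted p = 0.305) and 0.54 ± 0.19 on high fat (adjusted p = 0.214). HF.SAAR replicate 3, the highest mouse, is also the library with the most acinar RNA, and the high-fat value was 0.30 without that mouse and 0.35 without the 3 acinar libraries.

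Txnrd1 (chr10:82833951-82897712, plus strand) encodes the cytosolic thioredoxin reductase, a selenoprotein. Its level was 95.7, 101 and 95.5 CPM in RF.Ctrl and 120, 127 and 154 CPM in RF.SAAR, with no overlap. On high fat it was 89.5, 90.1 and 109 CPM in HF.Ctrl and 129, 103 and 128 CPM in HF.SAAR, where replicate 2 of HF.SAAR fell within the control range. The log2 fold change was 0.46 ± 0.13 on regular fat (adjusted p = 0.103) and 0.32 ± 0.13 on high fat (adjusted p = 0.291). The regular-fat value was called by DESeq2 (0.47, adjusted p = 0.0154) and with library size alone (0.62, adjusted p = 0.0491).

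With the mice of both fat levels in 1 comparison, Srxn1 and Txnrd1 were called, at log2 0.50 ± 0.13 (adjusted p = 0.0413) and 0.39 ± 0.09 (adjusted p = 0.0188), where 6.92% of all genes were called. The Srxn1 call was lost in 9 of the 12 fits that left out 1 mouse (log2 0.38 to 0.58, adjusted p up to 0.107), and that of Txnrd1 in 3 of the 12 (0.33 to 0.44, up to 0.0624). Both calls were also lost for the most abundant transcript alone (adjusted p = 0.167 and 0.174), without the 3 acinar libraries (0.211 and 0.0807) and without all 5 (0.422 and 0.249), and that of Srxn1 with effective-length offsets (0.0614). Of a list of 19 thiol redox genes, which holds peroxiredoxins, glutaredoxins, thioredoxins and methionine sulfoxide reductases, none was called on either fat level (median log2 fold change -0.05 and -0.03), and Glrx alone was called over both (0.53 ± 0.13, adjusted p = 0.0297). Of 6 genes of selenoprotein synthesis, none was called on either fat level and Sephs2, which makes the selenium donor, was called lower over both (-0.30 ± 0.08, adjusted p = 0.0329).

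Hmox1 (chr8:75093621-75100589, plus strand) encodes the inducible heme oxygenase. It measured 15.5, 20.1 and 12.0 CPM in RF.Ctrl and 17.4, 19.4 and 24.1 CPM in RF.SAAR. It measured 14.8, 17.0 and 13.5 CPM in HF.Ctrl and 16.3, 23.9 and 25.0 CPM in HF.SAAR. The groups overlapped on both fat levels, and the log2 fold change was 0.35 ± 0.20 on regular fat (adjusted p = 0.509) and 0.52 ± 0.20 on high fat (adjusted p = 0.28). Kupffer cells also make this enzyme. Their 8 markers summed to 287 to 346 CPM in RF.SAAR and 310 to 383 in RF.Ctrl, and to 312 to 434 in HF.SAAR and 266 to 364 in HF.Ctrl. None of the 8 was called, but all 8 had log2 fold changes above 0 on high fat (median 0.26), against 3 of 8 on regular fat (median -0.09). Their part in the Hmox1 values was not tested.

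Ephx1, Ugdh and Cbr3 serve epoxide opening, the supply of the sugar donor of glucuronidation and carbonyl reduction, in that order. Ephx1 (chr1:180976210-181020904, minus strand) encodes microsomal epoxide hydrolase, which opens epoxides to diols. Its level was 274, 276 and 246 CPM in RF.Ctrl and 412, 471 and 493 CPM in RF.SAAR. On high fat it was 338, 303 and 284 CPM in HF.Ctrl and 441, 503 and 462 CPM in HF.SAAR. All 6 SAAR mice lay above all 6 control mice, as was true of 1.92% of tested genes. The fold change was 1.73 on regular fat (log2 0.79 ± 0.10, adjusted p = 0.0024) and 1.52 on high fat (log2 0.60 ± 0.10, adjusted p = 0.00829). Without the 3 acinar libraries the high-fat value was 0.49 and lost its call (adjusted p = 0.398).

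Ugdh (chr5:65413221-65435949, minus strand), whose upstream ARE core is shown above, encodes the dehydrogenase that makes UDP-glucuronic acid, the sugar donor of glucuronidation. It stood at 142, 123 and 149 CPM in RF.Ctrl and at 256, 224 and 328 CPM in RF.SAAR. On high fat it stood at 140, 127 and 141 CPM in HF.Ctrl and at 259, 196 and 218 CPM in HF.SAAR. Again all 6 SAAR mice were above all 6 control mice, and HF.Ctrl differed from RF.Ctrl by log2 -0.02 ± 0.14. The fold change was 1.95 on regular fat (log2 0.96 ± 0.15, adjusted p = 0.0049) and 1.65 on high fat (log2 0.72 ± 0.14, adjusted p = 0.0201). On high fat the call was lost without any of 5 mice, HF.Ctrl 1, 2 or 3 or HF.SAAR 1 or 3 (log2 0.61 to 0.75, adjusted p 0.0548 to 0.103), without the 3 acinar libraries (0.86, adjusted p = 0.193), and for the most abundant transcript alone (0.73, adjusted p = 0.087).

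Cbr3 (chr16:93683215-93690990, plus strand), a carbonyl reductase, was barely expressed. Its mean level was 1.07 ± 0.558 CPM in RF.Ctrl, 0.819 ± 0.360 CPM in RF.SAAR, 0.604 ± 0.487 CPM in HF.Ctrl and 0.754 ± 0.255 CPM in HF.SAAR (SD, n = 3), and the groups overlapped. With standard errors of 0.64 on regular and 0.67 on high fat, its log2 fold changes of -0.38 and 0.30 could not be told from 0 at this depth (adjusted p = 0.885 and 0.919). The direction turned on regular fat without RF.Ctrl replicate 1 and on high fat without HF.Ctrl replicate 3.

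**Figure D3:**
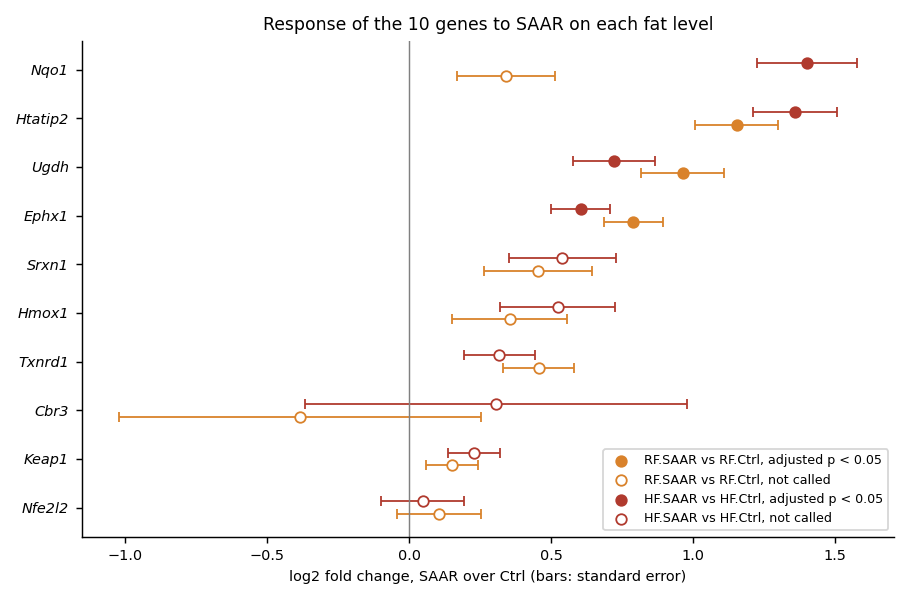
Log2 fold changes of the 10 genes for SAAR over Ctrl. The x axis gives the log2 fold change with its standard error as a bar, orange marks RF.SAAR vs. RF.Ctrl and red HF.SAAR vs. HF.Ctrl, and filled points have an adjusted p under 0.05. Htatip2, Ugdh and Ephx1 are filled on both fat levels, Nqo1 on high fat, and Nfe2l2 sits near 0.

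Htatip2 (chr7:49759115-49773975, plus strand) encodes a protein of the short-chain dehydrogenase family, also known as TIP30 or CC3, and had the smallest p of the 10 genes on both fat levels. Its level was 27.2, 28.4 and 23.8 CPM in RF.Ctrl and 56.3, 68.6 and 52.1 CPM in RF.SAAR. On high fat it was 25.9, 30.1 and 21.2 CPM in HF.Ctrl and 64.6, 74.9 and 58.6 CPM in HF.SAAR. The lowest SAAR mouse was well above the highest control mouse, and no mouse decided the call. The fold change was 2.23 on regular fat (log2 1.15 ± 0.15, adjusted p = 0.002) and 2.57 on high fat (log2 1.36 ± 0.15, adjusted p = 0.000271). The responses on the 2 fat levels differed by 0.20 ± 0.20 (adjusted p = 0.999).

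The use of transcripts within a gene is a measure that the summed counts do not hold. It comes from the same estimated counts of the same mice, in genes chosen with results known. The shares are therefore a description and not independent evidence. For the 6 genes with at least 2 transcripts at a mean of 1 TPM or more, the share of the gene's estimated counts held by its most abundant transcript was compared between SAAR and control mice, by exact permutation of the diets within each fat level (400 relabelings, smallest possible two-sided p 0.005). Htatip2 was the gene whose share moved. Its transcript Htatip2-202 held 66.7%, 68.2% and 60.6% in RF.Ctrl and 50.4%, 57.5% and 56.3% in RF.SAAR. On high fat it held 64.5%, 65.0% and 66.4% in HF.Ctrl and 47.7%, 51.6% and 48.0% in HF.SAAR. All 6 SAAR mice were below all 6 control mice, and the mean share was 13.3 percentage points lower (two-sided exact p = 0.005, adjusted p = 0.03 over the 6 genes).

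The rest of the counts belonged mostly to Htatip2-201, which had the larger fold changes. Htatip2-201 stood at 8.74 ± 0.326 CPM in RF.Ctrl against 25.6 ± 3.56 CPM in RF.SAAR and at 8.53 ± 1.70 CPM in HF.Ctrl against 32.1 ± 2.92 CPM in HF.SAAR (SD, n = 3). Htatip2-202 went from 17.3 ± 2.57 to 32.4 ± 6.11 CPM and from 16.8 ± 2.73 to 32.5 ± 5.46 CPM. In a fit of all transcripts, Htatip2-201 had log2 fold changes of 1.55 ± 0.16 (adjusted p = 0.0134) and 1.90 ± 0.16 (adjusted p = 0.00112). Those of Htatip2-202 were 0.90 ± 0.19 (adjusted p = 0.129) and 0.95 ± 0.19 (adjusted p = 0.078), so the longer coding form was not called on either fat level by itself.

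**Figure D4:**
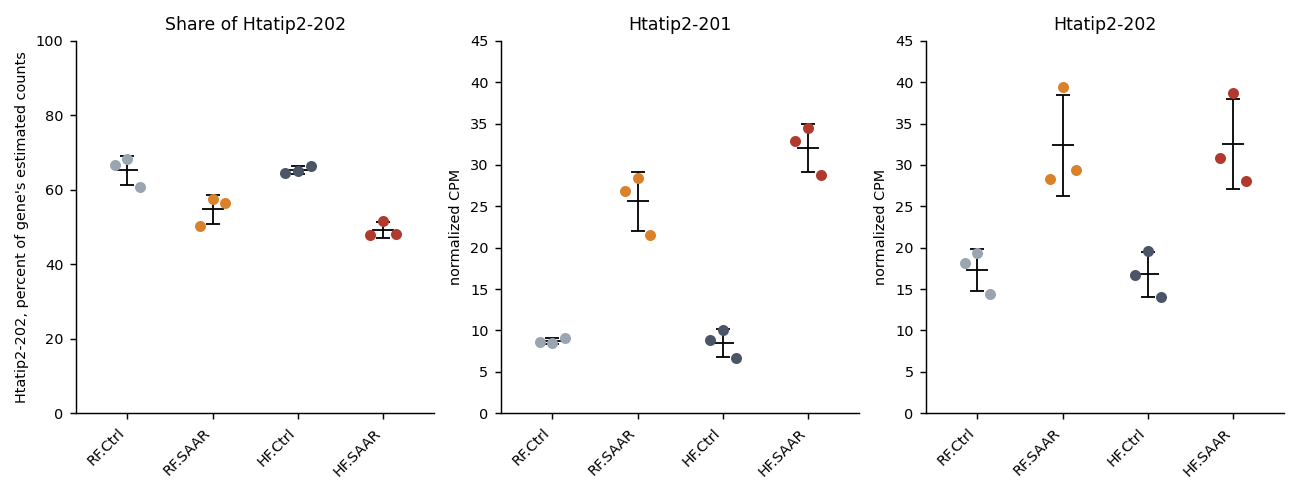
Transcripts of Htatip2 in each mouse. The left panel gives the share of Htatip2-202 in the gene's estimated counts (percent), the other panels the normalized CPM of Htatip2-201 and Htatip2-202, with each point a mouse, bars the mean ± SD of 3 mice, and the group on the x axis. The share is 60.6% to 68.2% in control mice and 47.7% to 57.5% in SAAR mice, and Htatip2-201 rises from below 11 CPM to above 21 CPM.

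Both transcripts start within the same stretch of chromosome 7 and share exons 3 to 6. The second exon of Htatip2-201 begins at 49759542, 56 bases before that of Htatip2-202 at 49759598. In GENCODE the coding region of Htatip2-202 opens in the first exon at 49759214 and spans 825 bases, while that of Htatip2-201 opens in the second exon at 49759599 and spans 726 bases. The second RefSeq start, the one preceded by the TGACTCAGC letters shown above, lies between the first exon and this second exon. Reads can tell these transcripts apart over a short stretch alone, and the deposited counts give no error for the division, which is a limit on these shares.

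For the other 5 genes the share did not pass the test. Ephx1-201 held 99.0% to 99.8% of its gene's counts, Nfe2l2-201 93.7% to 97.0% and Ugdh-201 93.6% to 96.8%. Keap1-205 held 30.2% to 67.3% and Txnrd1-201 47.3% to 67.9%, which shows how widely the division varied between mice. The mean differences between SAAR and control mice were 1.25 percentage points for Nfe2l2 and 0.901 for Ugdh (exact p = 0.055, adjusted p = 0.11 for each), -0.195 for Ephx1 (adjusted p = 0.338), 2.62 for Keap1 (adjusted p = 0.858) and -0.158 for Txnrd1 (adjusted p = 0.975). Leaving out RF.Ctrl replicate 1 brought Nfe2l2 (1.72 points) and Ugdh (1.18 points) to an adjusted exact p of 0.03. Nqo1 is annotated with a single transcript.

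In the comparisons between fat levels none of the 10 genes passed the threshold. The regular-fat and high-fat diets came from different suppliers, and the paper states that mice on high fat ate less by weight. These comparisons therefore do not isolate fat content. In HF.Ctrl vs. RF.Ctrl their log2 fold changes lay between -0.82 (Cbr3) and 0.22 (Ephx1), with a median of -0.02, and 0 of all tested genes were called by edgeR (0%, with 527 or 3.59% at an unadjusted p under 0.05 and 31 called by DESeq2). In HF.SAAR vs. RF.SAAR they lay between -0.26 (Ugdh) and 0.52 (Nqo1), with a median of 0.07, where 0.0477% of genes were called (0.0204% higher, 0.0273% lower) and 5.59% had an unadjusted p under 0.05. Nqo1 was the sole gene of the 10 with an unadjusted p under 0.05 in each of these comparisons and in the interaction.

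Other genes known as NRF2 targets were read from lists by function, 40 genes of which 38 were tested. These lists, too, were chosen with earlier results of these data known. Their counts and p-values, here and below, describe the listed genes and support nothing beyond them. In RF.SAAR vs. RF.Ctrl 6 were called higher and none lower (1.49% of all genes called), with a median log2 fold change of 0.26. On high fat 11 were called, each of them higher (1.97% of all genes called), with a median of 0.38. Without the 3 acinar libraries, where all 40 passed the filter, 5 were called on regular fat and 5 on high fat (Gsta2, Gstm1, Gstm2, Gstm3 and Pir), again all higher. Without all 5 raised libraries none was called on regular fat and Gstm3 on high fat, with medians of 0.22 and 0.27. In each of these comparisons some uncalled targets had values below 0.

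Of 10 conjugation genes 2 were called on regular fat and 5 on high fat, all glutathione transferases. Gsta2 reached at most 21.7 CPM among RF.Ctrl mice and 57.9 CPM among RF.SAAR mice (log2 1.26 ± 0.18, adjusted p = 0.0043) and stood at 20.1 ± 1.55 CPM in HF.Ctrl against 97.1 ± 13.3 CPM in HF.SAAR (log2 2.27 ± 0.18, adjusted p = 2e-05). Gstm1 stood at 598 ± 67.1 and 907 ± 40.3 CPM on regular fat (adjusted p = 0.00657) and 463 ± 21.9 and 1151 ± 48.8 CPM on high fat (adjusted p = 1.11e-05). Gstm2, Gstm3 and Gstm4 were called on high fat and not on regular fat, with high-fat log2 fold changes of 1.75 ± 0.20, 2.03 ± 0.21 and 0.76 ± 0.14. Gsta2 was also called in HF.SAAR vs. RF.SAAR (1.11 ± 0.17, adjusted p = 0.0452), but not without the 3 acinar libraries. As for Nqo1, the interaction was not called for any of them (adjusted p = 0.29 for Gstm3, the lowest of the 5), except for Gstm3 without all 5 raised libraries. These transferases are similar in sequence, so reads may be divided among them with error.

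Of 4 heme and iron genes 2 were called on regular fat and 3 on high fat. Slc48a1, a heme transporter, had log2 fold changes of 0.58 ± 0.10 (adjusted p = 0.0141) and 0.69 ± 0.10 (adjusted p = 0.00392). The ferritin light chain Ftl1 had 0.60 ± 0.13 (adjusted p = 0.0428) and 0.67 ± 0.13 (adjusted p = 0.0208), and the heavy chain Fth1 0.29 ± 0.10 (adjusted p = 0.187) and 0.61 ± 0.10 (adjusted p = 0.00598). Pir, an iron-binding nuclear protein, was called on both, at 0.63 ± 0.10 (adjusted p = 0.00818) and 1.14 ± 0.10 (adjusted p = 6.66e-05). Heme oxygenase itself, as given above, was not.

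Among the rest, the carbonyl reductase Cbr1 was called on high fat (0.77 ± 0.14, adjusted p = 0.0153), Aox1, an aldehyde oxidase, on regular fat (0.64 ± 0.15, adjusted p = 0.0489), and Tkt, the transketolase of the pentose phosphate pathway, on high fat (0.45 ± 0.08, adjusted p = 0.0132). Of 5 tested genes of glutathione synthesis and reduction none was called on either fat level. All 5 nevertheless had values above 0 on both (median 0.28 and 0.38). Gss, the glutathione synthetase, was called higher over both fat levels (0.33 ± 0.07, adjusted p = 0.00974), where 3.22% of all genes were called higher. Gclc, the catalytic subunit of the first step of glutathione synthesis, was at 0.62 ± 0.21 (adjusted p = 0.206) and 0.42 ± 0.21 (adjusted p = 0.467). None of 2 thiol genes or 3 efflux pumps was called.

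**Figure D5:**
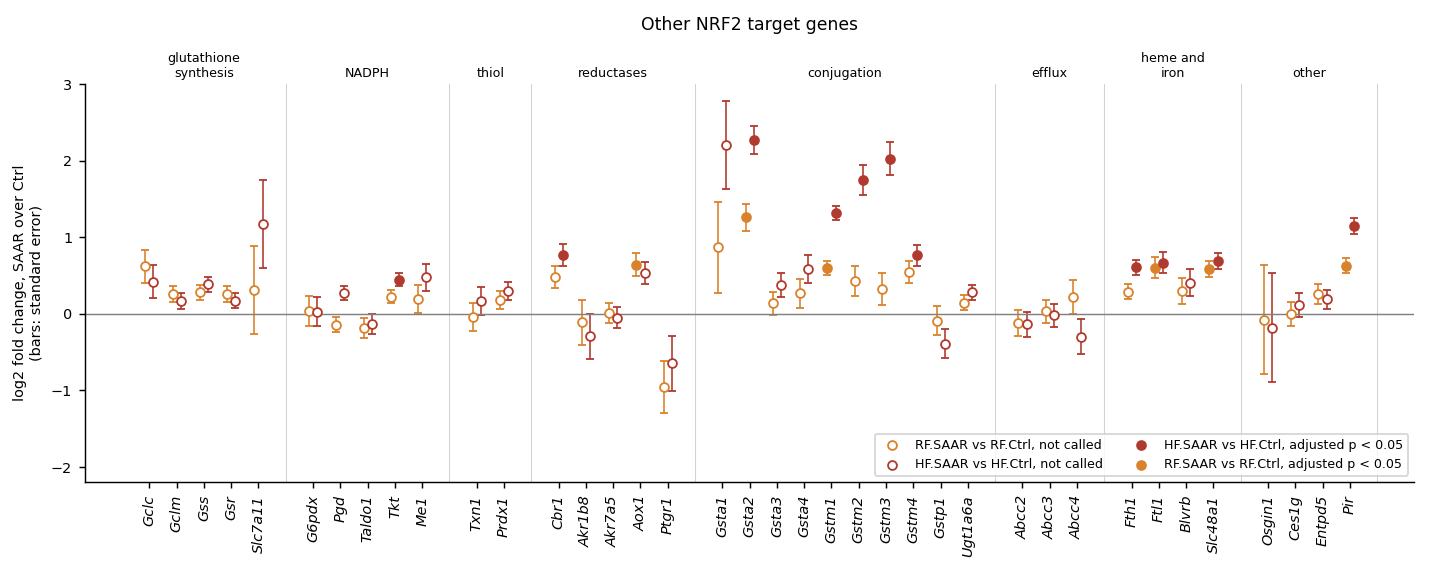
Log2 fold changes of 38 other NRF2 target genes for SAAR over Ctrl, grouped by function. The y axis gives the log2 fold change with its standard error as a bar, each gene has an orange point for RF.SAAR vs. RF.Ctrl and a red one for HF.SAAR vs. HF.Ctrl, and filled points have an adjusted p under 0.05. Filled points include glutathione transferases and heme and iron genes, with Gsta2 the highest at 1.26 and 2.27, and every filled point is above 0.

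Relatives and pathway neighbours of the 10 genes did not follow them as a group. Of 9 tested none was called on regular fat, where 1.49% of all genes were called. On high fat, where 1.97% were called, Hmox2, the constitutive heme oxygenase, was called higher (0.52 ± 0.10, adjusted p = 0.0201). Ephx2, the soluble epoxide hydrolase, was called lower there (-0.75 ± 0.14, adjusted p = 0.0163). Ephx2 went from 729 ± 25.5 CPM in HF.Ctrl to 433 ± 30.8 CPM in HF.SAAR, opposite to the microsomal enzyme Ephx1. Over both fat levels Hmox2 was called higher (0.42 ± 0.07, adjusted p = 0.00408). Ephx2 (-0.46 ± 0.10, adjusted p = 0.0146) and Cbr4 (-0.29 ± 0.07, adjusted p = 0.0297) were called lower in that comparison. The list of xenobiotic receptors and their cytochrome targets, which also govern drug metabolism, had none of 10 tested genes called on either fat level. Over both fat levels Nr1i3, the receptor CAR, was called higher (0.58 ± 0.15, adjusted p = 0.042) and Cyp3a11 lower (-0.75 ± 0.19, adjusted p = 0.0373). Of all tested genes 6.92% were called in that comparison.

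Single markers of other cells were called between the diets, while most members of their lists were not. Of 7 blood genes, Alas2, which opens heme synthesis in erythroid cells, was called lower on SAAR on both fat levels (-0.94 ± 0.13 and -1.36 ± 0.13, adjusted p = 0.00303 and 9.56e-05). Of all tested genes 0.886% and 0.961% were called lower. No other blood gene was called on either fat level. Of the 6 tested, 2 were above 0 on regular fat (median -0.77) and 3 on high fat (median 0.01). The summed level was 317 to 383 CPM in RF.SAAR against 573 to 653 in RF.Ctrl, and 258 to 533 in HF.SAAR against 433 to 457 in HF.Ctrl. Cholangiocyte markers (5 genes) summed to 35.2 to 42.9 CPM in SAAR mice and 42.9 to 62.0 CPM in control mice, with no gene called on either fat level. Spp1 was called lower over both (-0.46 ± 0.09, adjusted p = 0.00767), where 3.7% of all genes were called lower. The 8 hepatocyte markers summed to 78239 to 85746 CPM in RF.SAAR and 90445 to 102529 in RF.Ctrl, without overlap, and to 80230 to 91779 CPM in HF.SAAR and 84904 to 97636 in HF.Ctrl, with overlap. Serpina1c alone of them was called lower, on both fat levels. Of 6 stellate markers Lrat alone was called lower on regular fat (-0.86 ± 0.19, adjusted p = 0.0408), where 3 of the 6 were above 0 (median 0.01). Of 5 endothelial markers none was called on either fat level. Lyve1 was called higher over both (0.55 ± 0.11, adjusted p = 0.00746), where 3.22% of all genes were called higher. The part of these cells in the values of the 10 genes was not tested.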

How the data were processed

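Liver RNA of 12 mice was sequenced from both ends as polyadenylated RNA libraries. Reads were trimmed by the authors (cutadapt) and pseudoaligned to Ensembl mouse transcripts (kallisto), which gave the deposited estimated counts and TPM of every transcript, without normalization between mice. The deposited lengths and effective lengths are in bases.

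Transcript identifiers were matched to GENCODE M21 (GRCm38); 116816 of 118489 matched, and the remainder held 1.08% of counts. Estimated counts were summed by gene, rounded and fitted with edgeR 4.0.16 (R 4.3.3; all 12 mice, 1 coefficient per group, TMM scaling, the filterByExpr filter and a robust quasi-likelihood fit), with Benjamini-Hochberg adjustment over 14670 genes. Standard errors were derived from the F statistic. CPM used TMM-scaled totals. Without molecular identifiers, errors rest on how the mice varied; total counts were 16203094 to 21230092. The fit was tested on simulated counts.

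Groups follow the labels, in which the tags for diet and for fat content are exchanged but the values are plain. The 10 genes and all lists were chosen with earlier results of these data known. Named are the 10 genes, the list genes called in RF.SAAR vs. RF.Ctrl or HF.SAAR vs. HF.Ctrl, the regulator with the smallest p, and the 5 nearest patterns to Nqo1 and to Nfe2l2 (prior count 2). List genes named for a call over both fat levels, and those given as uncalled examples, were chosen after their values were seen. No gene was tested exactly at 3 mice per group, where 0.05 is out of reach. Alternatives were RLE size factors, library size alone, no filter, at least 10 counts in every mouse, effective-length offsets, only the groups compared, DESeq2 1.42.0, each mouse left out, an acinar covariate, the 3 acinar libraries left out, the most abundant transcript in place of the gene, isoform shares by TPM and, added after seeing the data, the 5 libraries raised in acinar markers left out. The authors' own tests were not used.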

Additional observations from a re-analysis of the deposited data

How the results depend on the processing

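The calls of Htatip2, Ephx1 and Ugdh on regular fat, and of Htatip2, Ephx1 and Nqo1 on high fat, held whichever mouse was left out, and, apart from leaving out the 5 libraries raised in acinar markers, were lost only for Htatip2 as its most abundant transcript alone (log2 0.90, adjusted p = 0.129, and 0.95, adjusted p = 0.078) and, on high fat, for Nqo1 and Ephx1 without the 3 libraries richest in acinar RNA (adjusted p = 0.0982 and 0.398). Hmox1, uncalled over both fat levels (adjusted p = 0.0925), was called there by DESeq2 (0.0479), with library size alone (0.0112) and without HF.SAAR replicate 1 (0.044) or RF.Ctrl replicate 2 (0.0437). Values that changed sign were uncalled throughout. They were Nfe2l2 on high fat (-0.18 without the 3 libraries, -0.394 without the 5, -0.10 to 0.27 leaving out a mouse) and over both fat levels (-0.034 and -0.172), and Cbr3 on regular fat (-0.80 to 0.12 leaving out a mouse, 0.12 without the 5), on high fat (-0.23 to 0.91) and over both (-0.30 to 0.26, 0.15 with library size alone, 0.13 with the acinar covariate, 0.43 without the 3 libraries, 1.97 without the 5). The share of the main transcript of Keap1 moved between -1.11 and 5.87 points and that of Txnrd1 between -1.88 and 2.71 when a mouse was left out. The Htatip2 share stayed between -14.5 and -12.2 points. Its adjusted exact p was 0.06 without RF.SAAR replicate 1 or 3 and stayed under 0.05 without any of the other 10 mice.

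For SAAR, 218 genes were called on regular fat, 289 on high fat and 1015 over both. With library size alone they were 425 (359 higher, 66 lower against 88 and 130), 719 (639 higher, 80 lower against 148 and 141) and 2449 (2175 higher, 274 lower against 472 and 543). DESeq2 called 591, 595 and 1363. Without the 3 libraries 30 were called on high fat and 380 over both, and without the 5, a setting added after seeing the data, 81 on regular fat, 6 on high fat and 234 over both, and with the compared groups alone 190 on high fat. Leaving out a mouse gave 87 to 244, 110 to 310 and 655 to 968. In HF.Ctrl vs. RF.Ctrl (0 called) the count was 1 with library size alone, 3 without a filter, 1 with the acinar covariate, 2 with the compared groups alone, 31 with DESeq2 and 0 to 2 leaving out a mouse. In HF.SAAR vs. RF.SAAR (7 called) it was 4, 14, 0, 0 without the 3 or the 5 libraries, 85 with DESeq2 and 1 to 7 leaving out a mouse. The interaction (1 called) gave 0 with effective-length offsets or without the 3 libraries, 16 with DESeq2 and 0 to 2 leaving out a mouse. The causes were not tested. No paired analysis was possible because the labels give the mice no replicate numbers, and the numbers used here follow the order of deposition.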
